A study of Mus musculus with 7 samples.

Results

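Frizzled receptors are the membrane receptors through which cells bind secreted Wnt proteins, and the mouse genome encodes 10 of them, Fzd1 to Fzd10. All 10 genes had a probe on the arrays analysed here, with 11 probes in all because Fzd5 had 2, out of 22911 genes with a named probe. Members were found by matching the accession of each non-control probe to the 10 gene symbols, a rule that uses no intensity. The samples were pancreatic islets of male mice that all carried floxed Wnt4 alleles, had been crossed to C57BL/6J, received tamoxifen by gavage from 4 to 5 weeks of age and were collected at 7 weeks. The 4 Wnt4βKO samples (Pdx1CreER Tg+; Wnt4 fl/fl) carried a tamoxifen-inducible Cre under the Pdx1 promoter, which is active in β-cells, and the 3 control samples (Pdx1CreER Tg-; Wnt4 fl/fl) had no Cre. The presence of Cre and the removal of Wnt4 cannot be told apart in this design. Each sample gave 1 single-colour array. The sources used here do not state whether islets of several mice were combined, so p-values measure the spread between these samples, and the number of arrays limits the precision.

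A frizzled protein binds the lipid-bearing part of a Wnt through its extracellular cysteine-rich domain and passes the signal inside the cell to Dishevelled proteins. With the co-receptors LRP5 and LRP6 this stabilises β-catenin, while with ROR, RYK or PTK7 it feeds planar polarity and calcium pathways. By sequence the family falls into the groups Fzd1, Fzd2 and Fzd7, Fzd3 and Fzd6, Fzd5 and Fzd8, and Fzd4, Fzd9 and Fzd10. In whole islets the receptors can come from endocrine cells or from vessels, nerves and stroma, and fewer cells of a type cannot be told apart from less RNA per cell.

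Promoter sequences of RefSeq (GRCm38.p6, 250 bases before to 50 after the start) were taken for 6 of the 10 genes, Fzd1, Fzd4, Fzd5, Fzd7, Fzd9 and Fzd10. The reference used held none for Fzd2, Fzd3 and Fzd6. Fzd8, detected on all 7 arrays, was left out because the search skipped its chromosome. Those of 3 genes are shown because they span the range from a receptor detected on all 7 arrays (Fzd4) through one detected on 5 (Fzd1) to one detected on none (Fzd5). In Fzd4 and Fzd5 the capitals mark each CpG, and in Fzd1 they mark the motifs found.
Fzd4, chr7:89404116-89404415, plus strand: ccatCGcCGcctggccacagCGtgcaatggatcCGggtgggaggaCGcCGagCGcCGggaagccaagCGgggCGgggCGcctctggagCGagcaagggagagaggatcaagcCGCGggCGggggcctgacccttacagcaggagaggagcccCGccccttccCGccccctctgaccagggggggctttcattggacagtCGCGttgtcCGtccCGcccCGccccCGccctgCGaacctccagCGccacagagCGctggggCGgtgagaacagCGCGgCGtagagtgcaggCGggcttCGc
Fzd1, chr5:4758167-4758466, minus strand: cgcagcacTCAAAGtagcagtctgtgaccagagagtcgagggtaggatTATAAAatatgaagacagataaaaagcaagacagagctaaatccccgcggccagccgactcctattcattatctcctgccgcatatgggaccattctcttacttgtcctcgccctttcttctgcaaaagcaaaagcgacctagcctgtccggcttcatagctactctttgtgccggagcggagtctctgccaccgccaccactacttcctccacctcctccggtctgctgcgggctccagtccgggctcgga
Fzd5, chr1:64737701-64738000, minus strand: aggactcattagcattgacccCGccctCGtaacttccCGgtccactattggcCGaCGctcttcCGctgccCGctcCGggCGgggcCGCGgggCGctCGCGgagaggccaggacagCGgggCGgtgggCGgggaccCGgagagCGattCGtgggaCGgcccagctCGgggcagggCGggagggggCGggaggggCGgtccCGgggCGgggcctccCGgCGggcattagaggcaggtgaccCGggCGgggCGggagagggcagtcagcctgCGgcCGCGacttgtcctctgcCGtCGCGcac
The Fzd4 promoter held 32 CpG in 300 bases and 72.7% G and C, and the promoter of the undetected Fzd5 held 38 CpG and 75.7%. The Fzd1 promoter held 16 CpG and 54.0%. The median over 32851 mouse promoters was 7 CpG and 52.7%. All 6 promoters searched lay above that median in CpG. Fzd10 (45, detected on no array) and Fzd9 (53) held the most, so that receptors with and without signal shared this feature. The TCF/LEF core CTTTGA, searched on both strands as CTTTGA or TCAAAG, was found in the Fzd1 promoter and in none of the other 5, and 16.0% of all promoters hold it. The letters TATAAA, searched on both strands, were also found only in Fzd1 among the 6, and 13.6% of all promoters hold them. These matches are descriptions of the window and not of binding.

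Detection differed across the family, from receptors detected on all 7 arrays to receptors detected on none. The scanner software marks a spot as well above background on each array. Fzd3, Fzd4 and Fzd8 were well above background on all 7 arrays. Fzd1 passed on 5 arrays, Fzd6 on 4 and Fzd9 on 4. Fzd7 passed on 2 arrays and Fzd2 on 1, and Fzd10 and both probes of Fzd5 passed on none. Over all 56605 probes, 37.7% were well above background on all 7 arrays, 8.52% on 3 to 6, 6.35% on 1 or 2 and 47.5% on none. With the scanner's looser mark for positive and significant spots, Fzd1, Fzd6 and Fzd9 joined Fzd3, Fzd4 and Fzd8 as detected on all 7 arrays. That mark was also set for Fzd2 and the first Fzd5 probe on 6 arrays, Fzd7 on 3, the second Fzd5 probe on 2 and Fzd10 on 1. The share of all probes that carry it is not given here. A probe that is not well above background bounds the signal and does not show that the transcript is absent.

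Values below are log2 intensities after background correction and quantile normalization. The correction adds 50 to each intensity, which keeps dim values near a floor: the 26860 probes that were well above background on no array had a median log2 intensity of 5.81. Levels of different probes were not compared, because probes differ in how brightly they report a transcript.

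**Figure D1:**
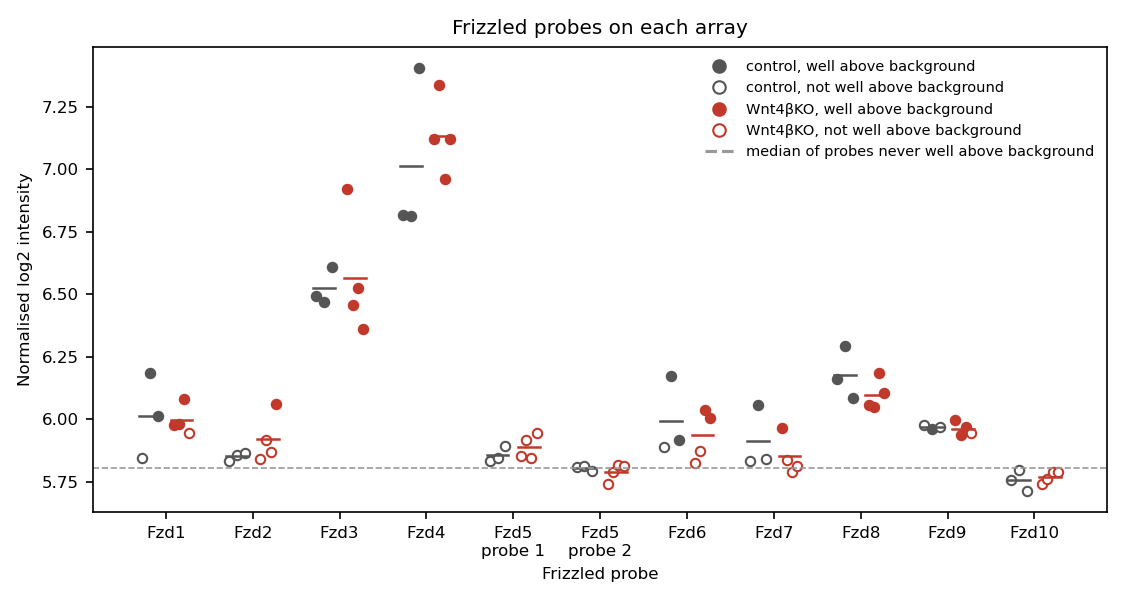
Normalised log2 intensity (vertical axis) of each of the 11 frizzled probes (horizontal axis) on the 3 control and 4 Wnt4βKO arrays, 1 point per array, with group means as short lines and filled points for spots well above background. Fzd3, Fzd4 and Fzd8 are filled on all 7 arrays, Fzd5 and Fzd10 on none, and control and Wnt4βKO points overlap for each probe.

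Fzd4, which binds norrin as well as Wnt proteins and is known for its part in retinal and brain vessels, read 6.82, 6.81 and 7.41 in control replicates 2, 3 and 4. It read 7.12, 7.34, 6.96 and 7.12 in Wnt4βKO replicates 1 to 4. All 4 Wnt4βKO arrays lay above control replicates 2 and 3, and control replicate 4 lay above all of them, so the groups overlapped. The difference, Wnt4βKO minus control, was 0.12 ± 0.17 (SE) on the log2 scale, with a 95% interval from -0.27 to 0.51, an unadjusted limma p of 0.481 and an adjusted p of 0.921. Without control replicate 4 it was 0.32 ± 0.12, with an unadjusted limma p of 0.0314 and an adjusted p of 0.654. Fzd4 values also differed in part by the position of the array on the slide. Control replicate 4 and Wnt4βKO replicates 1 and 2 sat in row 1 of the slide, with Fzd4 values from 7.12 to 7.41, and the remaining 4 arrays sat in row 2, with values from 6.81 to 7.12. The rows overlapped, since Wnt4βKO replicate 4 in row 2 (7.122) lay just above Wnt4βKO replicate 1 in row 1 (7.119). Within row 1 the difference was -0.18 (1 control, 2 Wnt4βKO) and within row 2 it was 0.23 (2 and 2). With the row as a block it was 0.065 ± 0.12. The part of slide position in the Fzd4 values was not tested further. Endothelial markers, 11 of 12 tested, averaged from 7.41 to 7.70 on the control arrays and from 7.29 to 7.79 on the Wnt4βKO arrays, and their part in the Fzd4 values was not tested.

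Of the relatives of Fzd4, Fzd9, a receptor studied in bone and brain, stayed between 5.94 and 6.00 on all 7 arrays. Its spots exceeded their local background by 2.0 to 7.0 intensity units, so that the mark of detection on 4 arrays rested on a few units. The difference was -0.0079 ± 0.060 (SE; adjusted limma p of 0.989). Fzd10 ranged from 5.71 to 5.80 and never exceeded its local background.

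Fzd3, which steers growing axons and aligns cells within epithelia, read 6.49, 6.47 and 6.61 in control replicates 2, 3 and 4. It read 6.92, 6.46, 6.53 and 6.36 in Wnt4βKO replicates 1 to 4. Wnt4βKO replicate 1 was the highest and Wnt4βKO replicates 4 and 2 the lowest of the 7, so that the Wnt4βKO arrays enclosed the controls. The difference was 0.042 ± 0.14 (SE), with a 95% interval from -0.28 to 0.36 and an unadjusted limma p of 0.768. It was -0.075 ± 0.083 without Wnt4βKO replicate 1. That array also had the lowest mean of the 16 acinar markers, 12.70. The acinar mean was 13.53 to 13.73 on the control arrays and 12.70 to 13.46 on the Wnt4βKO arrays, with all 16 markers tested and detected on all 7 arrays. These ranges did not overlap. A fit with this mean as a covariate therefore cannot tell acinar RNA from genotype, and it widened the error of each tested frizzled probe. With this mean as a covariate the Fzd3 difference was -0.15 ± 0.19, and the part of acinar RNA in it was not tested further. Fzd6, its close relative in planar polarity and hair patterning, read 5.89, 6.17 and 5.92 in control replicates 2, 3 and 4 and 5.83 to 6.04 in the Wnt4βKO samples. Control replicate 3 alone exceeded 6.04. The Fzd6 difference was -0.057 ± 0.099 (SE; unadjusted limma p of 0.583).

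Fzd8, which binds Wnt proteins with high affinity and signals with LRP6, read 6.16, 6.29 and 6.08 in control replicates 2, 3 and 4. It read 6.06, 6.05, 6.18 and 6.11 in Wnt4βKO replicates 1 to 4. Its signal above local background was 7.0 to 14 intensity units on 6 arrays and 30.0 on control replicate 3. The difference was -0.080 ± 0.079 (SE), with a 95% interval from -0.26 to 0.10, an unadjusted limma p of 0.341 and an adjusted p of 0.890. This unadjusted p was the lowest of the 6 tested probes. Without control replicate 3 the difference was -0.021 ± 0.077. Fzd5, the closest relative of Fzd8 and a receptor of intestinal Paneth cells, read 5.83 to 5.95 on its first probe and 5.74 to 5.82 on its second, and neither exceeded its local background by more than 2.0 intensity units.

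Fzd1, a receptor of the β-catenin branch, read 5.85, 6.19 and 6.01 in control replicates 2, 3 and 4 and 5.95 to 6.08 in the Wnt4βKO samples. The controls enclosed the Wnt4βKO arrays, and the difference was -0.018 ± 0.094 (SE; unadjusted limma p of 0.850). Fzd7, often expressed in stem and progenitor cells, was well above background only on control replicate 3 (6.06) and Wnt4βKO replicate 1 (5.97), and it read 5.79 to 5.84 on the other 5 arrays. Fzd2, a receptor for WNT5A, was well above background only on Wnt4βKO replicate 4, at 6.06, and read 5.83 to 5.92 elsewhere. Control replicate 3 was the highest of the 7 arrays for Fzd1, Fzd6, Fzd7 and Fzd8, and it also had the largest share of probes well above background, 46.6% against 43.0% to 45.2% on the other arrays.

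The comparison asked whether removal of Wnt4 from β-cells was accompanied by altered receptor transcripts. A probe entered the test when 3 or more of the 7 arrays marked it well above background, which kept 6 frizzled probes of 6 genes and left out Fzd2, Fzd5, Fzd7 and Fzd10. Of these 6, 0 passed an adjusted limma p of 0.05, against 0.0153% of all tested probes, and 0 passed an unadjusted limma p of 0.05, against 6.96%. Control and Wnt4βKO arrays did not overlap for 0 of the 6, against 7.24% of all tested probes. The differences lay between -0.080 and 0.12 with a median of -0.013, beside a median of 0.0027 over all tested probes. The spread within groups differed among the members. The residual SD was 0.25 for Fzd4, above that of 74.1% of tested probes, 0.20 for Fzd3 (62.0%) and 0.021 for Fzd9 (0.130%), whose values lay near the floor.

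How large a change could have been seen depended on the signal. The net control signal was taken as the intensity of the control mean above the floor of 5.81. The shifts given here carry no error of their own, although they rest on the same control arrays as the differences and on the floor chosen. A doubling of it would shift the log2 value by 0.65 for Fzd4, 0.48 for Fzd3 and 0.30 for Fzd8, and by 0.15 to 0.18 for Fzd9, Fzd6 and Fzd1. The 95% interval ended below a doubling for 4 of the 6 probes, Fzd3, Fzd4, Fzd8 and Fzd9, and not for Fzd1 and Fzd6. For Fzd9 the interval ended at 0.13, close to the shift of 0.15. The floor gave it a net control signal of 6.7 intensity units, while its control spots exceeded their local background by 3.0, 7.0 and 4.0. Whether Fzd9 would stay among the 4 with another floor was not tested. With an array left out this held in 7 of 7 cases for Fzd8, in 6 of 7 for Fzd3 and Fzd4, where it was lost without control replicate 4, and in 1 of 7 for Fzd9. A halving would shift Fzd4 by -0.48 and Fzd3 by -0.32, and the interval ended above a halving for these 2 of the 6. With an array left out this held in 7 of 7 cases for Fzd4 and in 3 of 7 for Fzd3, where it was lost without any control replicate or Wnt4βKO replicate 3, and it was also lost for Fzd3 with median scaling and with the acinar covariate. The acinar covariate also widened the Fzd4 interval past a doubling, to 0.77. For Fzd1, Fzd6, Fzd8 and Fzd9 a halving was not distinguishable from no change in the main fit. The Fzd9 interval ended above a halving in 3 of 19 alternative fits, and those of Fzd1, Fzd6 and Fzd8 did so in none.

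**Figure D2:**
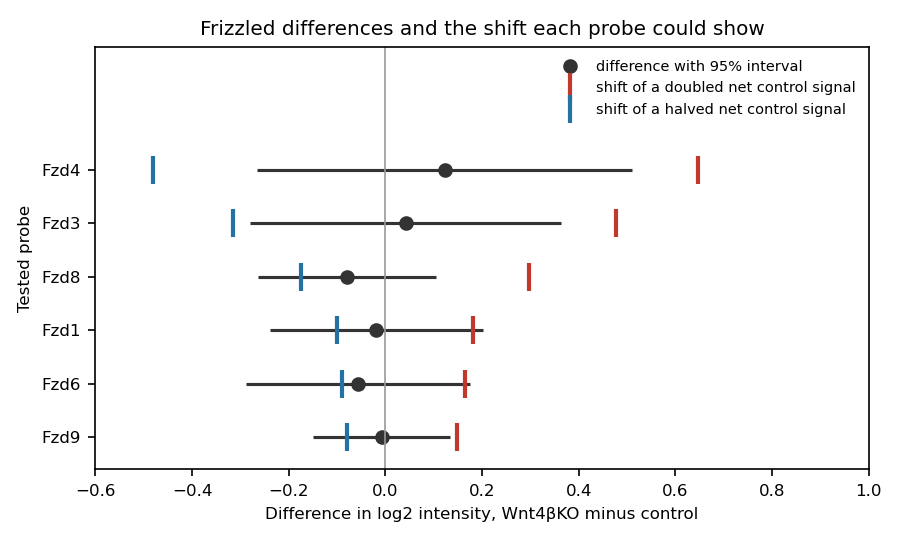
Difference in log2 intensity, Wnt4βKO minus control (horizontal axis), for the 6 tested frizzled probes (vertical axis), as points with 95% intervals, with marks for the shift that a doubled or halved net control signal would give. Each interval includes 0, and it ends above the mark for a halving only for Fzd4 and Fzd3.

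Without the added 50 (offset 0) the scale is less compressed and the errors are wider. The Fzd4 difference was then 0.22 ± 0.27, that of Fzd3 0.060 ± 0.28 and that of Fzd8 -0.27 ± 0.23. The scanner's processed signal gave 0.12 ± 0.25 for Fzd4, 0.11 ± 0.34 for Fzd3 and -0.41 ± 0.29 for Fzd8. For these 3 receptors the direction was the same as with the offset of 50, and the size changed with the scale.

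For the 3 receptors detected on all 7 arrays, the genes with the most similar profile over the 7 arrays were listed among 13636 genes, as a description that such a short profile makes easy to reach. The nearest to Fzd4 were Ptprz1 (Pearson r of 0.981) and Nrsn2 (0.973). The nearest to Fzd3 were Vsig10 (0.967) and BC037704 (0.963), and the nearest to Fzd8 were Plpp5 (0.99) and Cant1 (0.987).

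Genes that act with the receptors were taken as 81 partners in 9 lists, of which 48 had a probe above the filter and 33 did not. Of the 48, 0 passed an adjusted limma p of 0.05, beside 0.022% of 13666 tested genes. At an unadjusted limma p of 0.05, 2 were higher in Wnt4βKO, Wnt5b and Nfatc1, and 2 were lower, Wnt4 and Plcb4. Over all tested genes, 4.51% were higher and 4.43% lower at that threshold. The median difference of the 48 was 0.018, and that of all tested genes 0.0075.

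**Figure D3:**
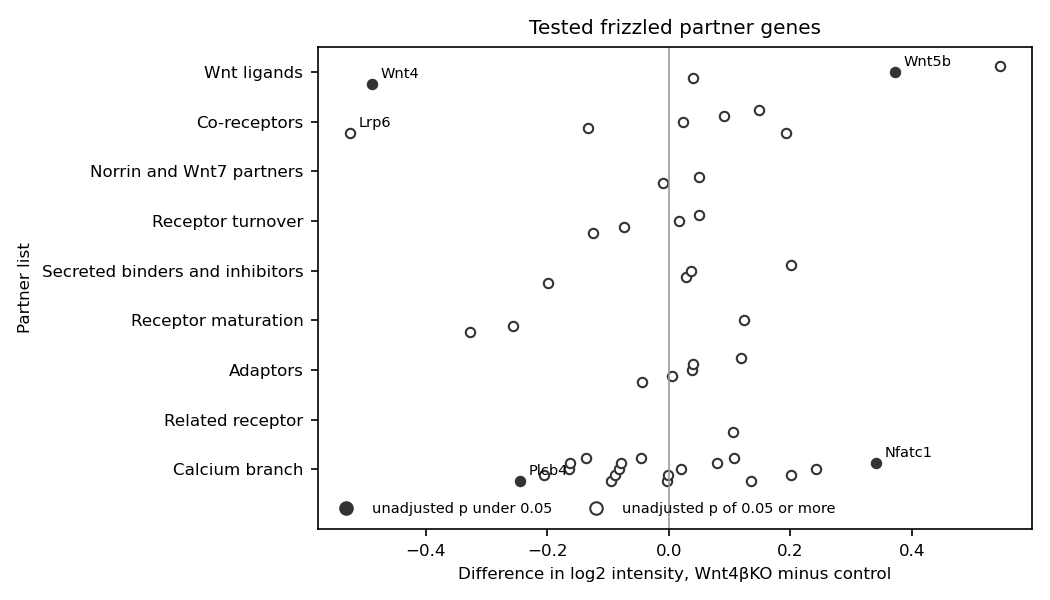
Difference in log2 intensity, Wnt4βKO minus control (horizontal axis), of the 48 tested partner genes by list (vertical axis), 1 point per gene on its brightest probe, filled where the unadjusted limma p was under 0.05. The 4 filled points are Wnt4 and Plcb4 on the negative side and Wnt5b and Nfatc1 on the positive side, and Lrp6 is named at -0.52. Wnt7b, not named in the figure, lies at 0.54.

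Among the ligands, 4 of 19 Wnt genes were tested, Wnt1, Wnt4, Wnt5b and Wnt7b, and the other 15 stayed below the filter. Wnt4, the gene targeted in these mice, read 11.56, 11.17 and 11.77 in control replicates 2, 3 and 4. It read 11.30, 10.80, 11.04 and 10.92 in Wnt4βKO replicates 1 to 4. The transcript was lower on average but still bright, and Wnt4βKO replicate 1 lay above control replicate 3, so the groups overlapped. The difference was -0.49 ± 0.17 (SE; unadjusted limma p of 0.0232, adjusted p of 0.651). The unadjusted p stayed under 0.05 without control replicate 3 or Wnt4βKO replicates 1 or 3 and did not without any of the other 4 arrays, where the difference was smallest at -0.35 without control replicate 4. It also missed 0.05 with offset 0 (0.0525), the processed signal (0.184) and median scaling (0.138). Whether the probe lies in the removed part of the gene was not determined. Wnt5b, a ligand of β-catenin-independent signalling, read 6.80, 7.01 and 6.96 in control and 7.41, 7.07, 7.28 and 7.42 in Wnt4βKO. All Wnt4βKO arrays lay above all controls on this probe. The difference was 0.37 ± 0.11 (SE; unadjusted limma p of 0.0102, adjusted p of 0.595), while the other Wnt5b probe gave 0.045 ± 0.10. Its unadjusted limma p was 0.0641 with the processed signal, 0.126 with median scaling and 0.238 with the acinar mean as a covariate. Wnt7b had the difference largest in size of the 48 tested partners, 0.54 ± 0.29 (SE; unadjusted limma p of 0.097), with overlapping groups. The unadjusted limma p of Wnt7b fell under 0.05 without Wnt4βKO replicate 2.

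Of the 7 co-receptors, 6 were tested. Lrp5, Lrp6, Ror2, Ryk and Ptk7 were well above background on all 7 arrays, Ror1 on 4, and Musk on none. Lrp6, which joins frizzled receptors in β-catenin signalling, read 9.15, 8.43 and 8.89 in control and 7.72, 8.21, 8.42 and 8.85 in Wnt4βKO. The ranges overlapped, and the difference was -0.52 ± 0.28 (SE; unadjusted limma p of 0.0992). Its dimmer probe gave -0.13 ± 0.084. The unadjusted limma p of Lrp6 was 0.0108 when arrays were only scaled to a common median, 0.0493 without control replicate 3 and 0.0258 without Wnt4βKO replicate 4. The difference shrank to -0.28 (p of 0.520) with the acinar mean as a covariate, to -0.33 without Wnt4βKO replicate 1 (p of 0.203) and as the mean over both probes (p of 0.0910), and to -0.36 (p of 0.288) without control replicate 2. The other 5 differences were 0.091 ± 0.13 for Lrp5, 0.024 ± 0.073 for Ror1, 0.15 ± 0.29 for Ror2, -0.13 ± 0.16 for Ryk and 0.19 ± 0.23 for Ptk7, each with overlapping groups.

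Norrin (Ndp), the non-Wnt ligand of Fzd4, was well above background on no array. Tspan12, the membrane protein that assists norrin at Fzd4, read 6.36, 6.50 and 7.20 in control and 6.76, 7.21, 6.39 and 6.36 in Wnt4βKO, with a difference of -0.0095 ± 0.27 (SE). Control replicate 4 and Wnt4βKO replicate 2 held the highest values of Tspan12, as they did of Fzd4, a pattern noticed after the values were seen. All 3 arrays of slide row 1 lay above all 4 of row 2 for Tspan12. The share of all tested probes that split by row in this way is not given here. Of the ubiquitin ligases that remove frizzled receptors from the membrane, Rnf43 differed by -0.13 ± 0.11 (SE) and Znrf3 by -0.074 ± 0.11. Of the secreted binders and inhibitors 4 of 11 were tested, of the maturation factors 3 of 4 and of the adaptors 5 of 5, and none of these 12 genes passed an unadjusted limma p of 0.05 on its brightest probe. The maturation factors differed by -0.33 ± 0.17 (SE; unadjusted limma p of 0.0958) for Wls, -0.26 ± 0.13 (0.0928) for Shisa2 and 0.12 ± 0.11 (0.313) for Porcn. The dimmer probe of the adaptor Dvl3, named after its value was seen, differed by -0.18 (unadjusted limma p of 0.0250). Its brighter probe gave 0.039 ± 0.23 (unadjusted limma p of 0.874).

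**Figure D4:**
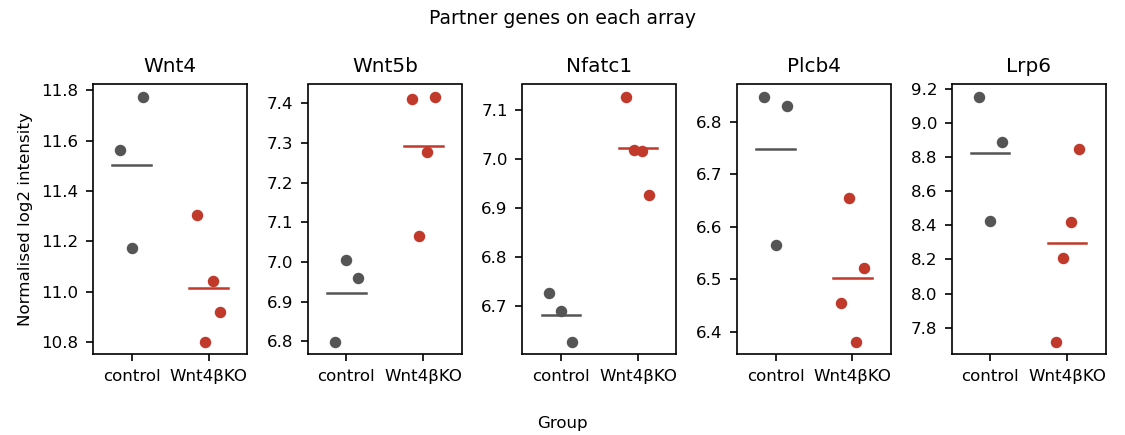
Normalised log2 intensity (vertical axes, a scale of its own in each panel) of Wnt4, Wnt5b, Nfatc1, Plcb4 and Lrp6 on the 3 control and 4 Wnt4βKO arrays (horizontal axes), 1 point per array with group means as lines. The Wnt4βKO points lie above all control points for Wnt5b and Nfatc1, and the groups overlap for Wnt4, Plcb4 and Lrp6.

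In the calcium branch, in which frizzled receptors act through G proteins, phospholipase C, CaMKII and calcineurin, 19 of 21 genes were tested. Of these, 7 were higher and 12 lower in Wnt4βKO, with a median of -0.047, and 2 passed an unadjusted limma p of 0.05. Over all 13666 tested genes 7126 were higher, 6540 were lower and 8.94% passed that threshold, so the list's share of 10.5% lay near the background. Nfatc1, a transcription factor activated by calcineurin, read 6.73, 6.69 and 6.63 in control and 7.13, 7.02, 7.02 and 6.93 in Wnt4βKO. The groups did not overlap, and the difference was 0.34 ± 0.074 (SE; unadjusted limma p of 0.00216, adjusted p of 0.494). Its unadjusted limma p was 0.0675 with median scaling, the one alternative in which it missed 0.05. Plcb4, a phospholipase C, read 6.85, 6.57 and 6.83 in control and 6.45, 6.65, 6.38 and 6.52 in Wnt4βKO. Its groups overlapped, and the difference was -0.24 ± 0.10 (SE; unadjusted limma p of 0.0477, adjusted p of 0.710), beside -0.0044 ± 0.069 on its other probe. Its unadjusted p stayed under 0.05 without control replicate 3 or Wnt4βKO replicate 2 and did not without any of the other 5 arrays. It was also lost with the acinar covariate (-0.17, p of 0.320), the mean over both probes (-0.12, p of 0.139), offset 0 (p of 0.0580), the processed signal (p of 0.0561), a filter requiring all 7 arrays (p of 0.0594) and a trended variance (p of 0.0682).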

How the data were processed

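The authors deposited 1 scanner file per array with spot intensity values on a linear scale, not normalized between arrays, from Agilent SurePrint G3 Mouse v2 arrays labelled from 50 ng of RNA. The file headers name Agilent Feature Extraction 12.0.1.1 and the submitters' processing notes 9.1. Each of the 7 arrays held 62976 spots, with median local backgrounds of 22.0 to 23.0 intensity units, and no spot was saturated. All lay on 1 slide.

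Following the study's methods, the median spot signal was corrected with normexp (offset 50) against the median local background and quantile normalized as log2 in limma 3.58.1 under R 4.3.3. Control spots were left out and outlier spots set to missing. Probes well above background on at least 3 arrays, 26151 of 56605, were tested with lmFit and eBayes (two-sided, Benjamini-Hochberg over all of them). Accessions were matched to a RefSeq gene table of GRCm38.p6, which named 32994 probes. A partner gene was represented by its brightest tested probe. Genes were named by rule: all frizzled probes, Wnt4, the co-receptors, Tspan12, Rnf43, Znrf3, partners with an unadjusted p under 0.05, and the 2 most similar profiles. Values of Wnt7b, Dvl3 and the maturation factors were given outside this rule, after they were seen. The members and lists were chosen with earlier results of these data known. The deposited table of log2 values (36693 probes) was not used, because after centring its columns did not follow their own arrays (Pearson r from -0.081 to 0.093). The fits were also run on simulated data with independent normal values for each probe. Such data hold no slide or cell-mixture effects, and no conclusion here rests on them. Alternatives changed the background, scaling, filter, variance model, blocks, covariate, probe choice or the arrays included.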

Additional observations from a re-analysis of the deposited data

Results flagged for a closer look

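Of 28 values examined over the 4 Wnt4βKO arrays (the tested frizzled probes, the named partner genes and the marker means), 1 had a sample far from the others, where chance flags about 1 in 20. Ror1 read 6.06 on Wnt4βKO replicate 1 and 5.96 to 5.97 on the other 3, a gap of 0.887 of the whole range and above Dixon's 95% critical value. All 4 values lay near the floor of 5.81.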

How the results depend on the processing

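Over 13 settings and 7 arrays left out in turn, 0 frizzled probes passed an adjusted limma p of 0.05. The number at an unadjusted p was 0 in each setting and 0 to 1 with an array left out, the 1 being Fzd4 without control replicate 4. No partner gene passed an adjusted p in any alternative. Differences of Fzd4 and Fzd8 kept their direction in all 20 alternatives each, at 0.023 to 0.32 and -0.41 to -0.021. The alternative filters and variance model leave the estimate itself unchanged, so they could not turn it. Within row 1 of the slide alone the Fzd4 difference was -0.18 (1 control, 2 Wnt4βKO). Small differences changed sign, none past a threshold, and the cause was not tested: Fzd1 was 0.019 with offset 0 and 0.35 with the processed signal, Fzd9 0.094 with the processed signal, and Znrf3 0.0026 as the mean over its probes. With the acinar covariate, which did not overlap between the groups, Fzd3 was -0.15, Lrp5 -0.092, Ptk7 -0.33, Ror1 -0.018, Ryk 0.079 and Tspan12 0.13. With an array left out, the range was -0.11 to 0.063 for Fzd1, -0.075 to 0.11 for Fzd3, -0.11 to 0.029 for Fzd6, -0.020 to 0.0011 for Fzd9, -0.0031 to 0.20 for Lrp5, -0.027 to 0.050 for Ror1, -0.10 to 0.43 for Ror2, -0.23 to 0.0068 for Ryk, -0.19 to 0.25 for Tspan12 and -0.14 to 0.0072 for Znrf3.

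Of 10 frizzled genes, 3 were detected on all 7 arrays, and leaving out an array gave 3 each time. The number was 6 with the positive and significant mark, 5 with a processed signal above the 99th percentile of negative control spots (Fzd6 and Fzd9 besides the 3), 6 at a minimum of 3 arrays and 8 at 1. Shares of all probes under the positive and significant mark and the negative control rule are not given here. The partner genes at an unadjusted p numbered 4, against 1 with the processed signal (Nfatc1), 2 with the acinar covariate (Nfatc1 and Wnt4) and 2 to 7 with an array left out, 2 without control replicate 2 and 7 without control replicate 3. Median scaling gave 3, of which only Plcb4 was among the 4. Nfatc1 passed in 20 of 21 alternatives, Wnt5b in 18, Wnt4 in 14 and Plcb4 in 10.

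The deviations of same-numbered samples correlated with r of -0.13, 0.23 and -0.0069 for numbers 2, 3 and 4. Pairs of a control and a Wnt4βKO sample with different numbers ranged from -0.31 to 0.16, so the value for number 3 lay above all of these. With the replicate block the frizzled probes at an adjusted or unadjusted p remained 0 and the partner genes at an unadjusted p remained 4, and the Fzd4 difference was 0.12. Naming probes by the scanner's gene name column was not run, since the files used here carry none. For all receptors but Fzd3 and Fzd4, 8 of the 10, the main fit had no test or an interval reaching a halving.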
